A study of Morus alba var. atropurpurea with 12 samples.

Results

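This report describes 475 transcripts of mulberry root that lay on one side of the control at every cadmium dose tested, with dose means no more than 0.5 log2 units apart. They are 475 of the 17782 transcripts that reached at least 1 FPKM in 3 or more of 12 libraries, a share of 2.67%, and of 22727 transcripts listed in any library. FPKM is the number of sequenced fragments per kilobase of a transcript, divided by the fragments mapped in that library. Members were selected on these same FPKM values. A transcript was included when all 9 cadmium libraries lay above all 3 control libraries, or all 9 lay below them, and when the means of the 3 doses on the log2(FPKM + 1) scale lay within 0.5 of each other. By this rule 341 transcripts stood higher with cadmium and 134 stood lower. Because the members were chosen by these levels, the shifts against control and the closeness of the doses are given as descriptions. Such members are called level below, although the limit of 0.5 is nearly as large as their median shift.

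The plants were Morus alba var. atropurpurea of the cultivar Yuesang10, a woody crop grown for leaf and fruit. Seedlings raised for 3 months in soil were cut back, kept for 3 days in full-strength Hoagland nutrient solution and then exposed for 20 days to cadmium chloride at 5, 10 or 20 mM, while control plants stayed in the same solution without cadmium. Each of these 4 groups has 3 libraries made from roots, although the design text of the series speaks of fruit. The labels do not say whether replicate libraries stem from different plants, and the spread between replicates, on which all p-values rest, may be technical. The deposited identifiers are not paired with gene products, so root markers could not be looked up and no function is given for any transcript. Fewer cells of a type and less RNA per cell cannot be told apart in such bulk samples.

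Cadmium is a toxic metal that enters root cells through carriers for iron, zinc, manganese and calcium. Plant cells bind it with thiol peptides made from glutathione and move it into the vacuole, and they answer the oxidative damage it causes with antioxidant enzymes. A response that is full at the lowest dose gives a level course over higher doses, whereas a graded one follows the dose.

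The control libraries also differed from the cadmium libraries in measures that are not specific to the members. The worth of 1 read, read from the steps between low values and set relative to a mean of 1, lay between 0.945 and 1.01 in the 9 cadmium libraries and between 1.04 and 1.06 in the 3 controls, with no overlap. A higher worth means a shallower library, and its part in the member list was not tested. The numbers of listed transcripts did overlap, at 19921, 19381 and 20001 in control replicates 1, 2 and 3 and 19507 to 20071 in the cadmium libraries. Of the 475 members, 5 had a library in which they were not listed, against 1505 of the 17782 tested, and 25 higher and 11 lower members were under 1 FPKM in at least 1 library. Control replicate 2 had the lowest median level of all 12 libraries, at 8.86 FPKM over the tested transcripts, where the cadmium libraries ran from 9.96 to 11.96 and the other 2 controls were at 10.965 and 11.06. The median pooled difference of all tested transcripts, defined as the mean of the 3 dose means minus the control mean, was 0.08 on the log2(FPKM + 1) scale and was 0.0030 without that library. On the first principal component, which held 20.3% of the variance, 10 mM replicate 1 stood at -21.1 among the control and 5 mM libraries, whereas 10 mM replicates 2 and 3 stood at 33.2 and 23.9.

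Among the higher members, cadmium roots had a median level of 17.8 FPKM and control roots one of 11.3 FPKM. The median ratio of cadmium to control mean FPKM was 1.54, and 50 of the 341 reached a ratio of at least 2. The pooled difference had a median of 0.56 on the log2(FPKM + 1) scale, with quartiles of 0.43 and 0.70 and a range from 0.18 to 1.83. Most of these shifts were therefore under 1 log2 unit, which 16 of the 341 reached. Of the 17782 tested transcripts, 2.38% had all 9 cadmium libraries above all 3 controls, which is 424 transcripts, and 80.4% of those 424 also had dose means within 0.5. Dose means that close were found in 59.2% of all tested transcripts. Separation itself favours transcripts with close replicates, so the difference between these shares is not a test of dose dependence.

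Among the lower members, cadmium roots had a median level of 37.2 FPKM and control roots one of 54.9 FPKM. The median ratio of cadmium to control mean FPKM was 0.655, and 16 of the 134 had a ratio of at most 0.5. The pooled difference had a median of -0.59, with quartiles of -0.75 and -0.46 and a range from -1.72 to -0.17, and 7 of the 134 passed 1 log2 unit in size. Of all tested transcripts, 1.01% had all 9 cadmium libraries below all 3 controls, which is 180 transcripts, and 74.4% of those were level across the doses. The background of 59.2% and the same limit apply here. No member in either direction was unlisted in all 3 control libraries or in all 9 cadmium libraries.

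The ratio of higher to lower members depended on how libraries were scaled. As deposited, 71.8% of the 475 members were higher. After each library was shifted to a common median, the same rule gave 224 higher and 229 lower members, of which 49.4% were higher. Of the 341 higher members 183 remained, and of the 134 lower members 115 remained. Control replicate 2, the library with the lowest median, held the highest control value in only 55 of the 341 higher members, where replicate 1 did so in 142 and replicate 3 in 144. Without it, 508 transcripts were higher and 368 lower by the same rule. Leaving out any control loosens the rule, and without replicate 1 the numbers were 769 and 233, and without replicate 3 they were 870 and 318. Without 10 mM replicate 1, the library that stood apart from its group, they were 400 and 189. Leaving out a cadmium library loosens the separation too. Over all cadmium libraries left out 1 at a time the numbers ran from 349 to 478 higher and from 131 to 200 lower.

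XM_010088850.1 had the largest pooled difference of the higher members with a mean of at least 5 FPKM. The controls held 3.76, 2.22 and 2.12 FPKM, the 5 mM libraries 6.72, 16.86 and 19.64 FPKM, the 10 mM libraries 13.6, 11.84 and 9 FPKM and the 20 mM libraries 10.14, 14.01 and 9.86 FPKM. The nearest cadmium library, 5 mM replicate 1, was still well above the highest control, and the 5 mM group alone spread more than 2-fold. This gap of 0.70 log2 units between the nearest libraries was the widest of all 341 higher members. Cadmium roots averaged 12.4 ± 4.06 FPKM (SD, n = 9) and control roots 2.70 ± 0.919 FPKM (SD, n = 3), a pooled difference of 1.83 ± 0.29 log2 units (SE). The shift was 1.97 at 5 mM, 1.76 at 10 mM and 1.75 at 20 mM, each with a standard error of 0.35, so the order of the doses lay within the error.

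XM_010089744.1 had the second largest difference. Its control levels were 7.54, 6.35 and 5.89 FPKM, those at 5 mM were 12.45, 19.5 and 19.48 FPKM, those at 10 mM were 20.23, 19.89 and 33.01 FPKM, and those at 20 mM were 14.1, 22.35 and 21.9 FPKM. The controls lay close together, and one 10 mM library was far above the other cadmium libraries. Cadmium roots averaged 20.3 ± 5.81 FPKM (SD, n = 9) and control roots 6.59 ± 0.851 FPKM (SD, n = 3), a pooled difference of 1.45 ± 0.22 log2 units (SE). Its dose means were 0.47 apart, which is close to the limit of the rule, with the highest at 10 mM.

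XM_010100396.1 led the lower members. Levels were 8.5, 4.19 and 4.61 FPKM in the controls, 1.16, 0.26 and 2.81 FPKM in the 5 mM libraries, 0.12, 1.92 and 1.95 FPKM in the 10 mM libraries and 0.51, 0.86 and 0.63 FPKM in the 20 mM libraries. All cadmium libraries were low, 5 of the 9 of them under 1 FPKM, and the 5 and 10 mM groups each spread over 10-fold. Cadmium roots averaged 1.14 ± 0.909 FPKM (SD, n = 9) and control roots 5.77 ± 2.38 FPKM (SD, n = 3), a pooled difference of -1.72 ± 0.37 log2 units (SE). The scale understates changes at this level, and with a pseudocount of 0.1 the difference was -2.59 (adjusted p = 0.148 in limma). With that pseudocount the dose means lay more than 0.5 apart, so the transcript was not a member.

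XM_010094586.1 was the second of the lower members. Control libraries held 67.66, 54.39 and 40.12 FPKM, the 5 mM libraries 14.05, 23.03 and 22.29 FPKM, the 10 mM libraries 38.22, 22.06 and 17.45 FPKM and the 20 mM libraries 14.08, 12.61 and 33.39 FPKM. Its separation was narrow, since 10 mM replicate 1 at 38.22 FPKM came within 0.07 log2 units of control replicate 3. Cadmium roots averaged 21.9 ± 8.86 FPKM (SD, n = 9) and control roots 54.1 ± 13.8 FPKM (SD, n = 3), a pooled difference of -1.32 ± 0.31 log2 units (SE). All 4 named transcripts were also members after median scaling.

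**Figure D1:**
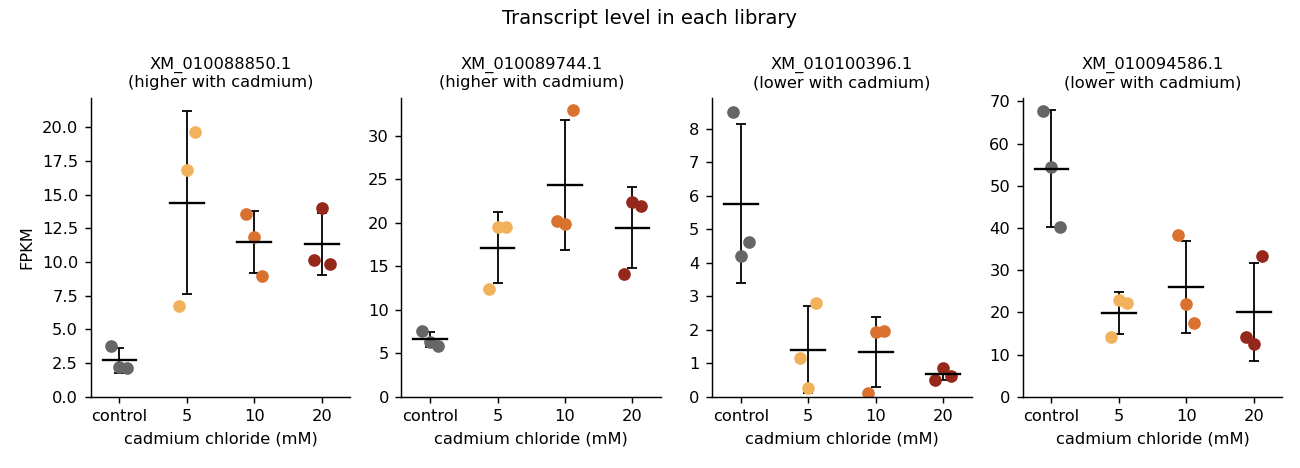
FPKM of the named transcripts in each library (points), with the group mean (line) and SD (error bar, n = 3), for control and 5, 10 and 20 mM cadmium chloride; each panel has its own axis from 0. In all 4 panels the 9 cadmium libraries lie on one side of the 3 controls, most narrowly in XM_010094586.1.

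Abundant transcripts were found in both directions. The most abundant higher member had 848.73, 929.17 and 887.11 FPKM in the controls, 1303.91, 1191.53 and 1034.26 FPKM in the 5 mM libraries, 1142.29, 1179.12 and 1547.27 FPKM in the 10 mM libraries and 1497.55, 1322.68 and 1546.83 FPKM in the 20 mM libraries. The controls spanned a narrow range and the lowest cadmium library, 5 mM replicate 3, was 0.15 log2 units above the highest of them. After median scaling this transcript was no longer a member. Its dose means were in the order of the doses, with shifts of 0.40, 0.52 and 0.71 log2 units, within the limit of 0.5 that defines a level course. The most abundant lower member had 1674.33, 1767.69 and 1355.56 FPKM in the controls, 982.36, 827.91 and 813.03 FPKM in the 5 mM libraries, 1228.98, 1167.86 and 1038.78 FPKM in the 10 mM libraries and 1309, 817.54 and 1210.51 FPKM in the 20 mM libraries. This one was lowest at the lowest dose, with shifts of -0.87, -0.48 and -0.54 log2 units.

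The directions differed in how abundant their members were, a property the rule names in its floor of 1 FPKM. That floor kept out 37 lower and 9 higher transcripts that met the other conditions, so the shares at low levels depend on it. Of the lower members 35 of 134, or 26.1%, had a mean of at least 100 FPKM over the 12 libraries, and of the higher members 18 of 341, or 5.28%. Among all tested transcripts 10.6% reached that level. Means between 5 and 50 FPKM were held by 42.5% of the lower members, 63.9% of the higher members and 47.0% of all tested transcripts. Means under 5 FPKM were held by 18 lower and 70 higher members. Replicate spread and the log scale change with level, so the rule does not select equally at all levels, and no test of these shares was made.

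**Figure D2:**
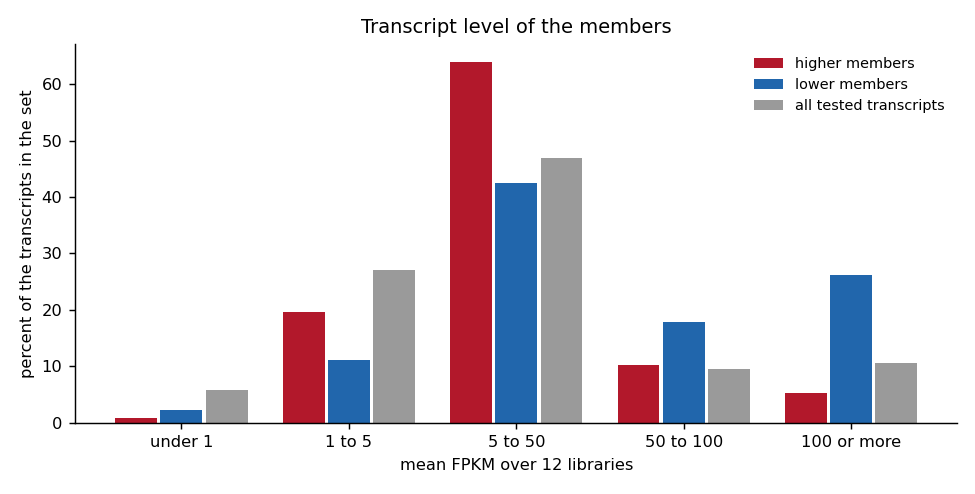
Percent of the higher members (341), the lower members (134) and all tested transcripts (17782) in each class of mean FPKM over the 12 libraries. The lower members fill the class of 100 FPKM or more to 26.1%, against 5.28% for the higher members and 10.6% for all tested transcripts.

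**Figure D3:**
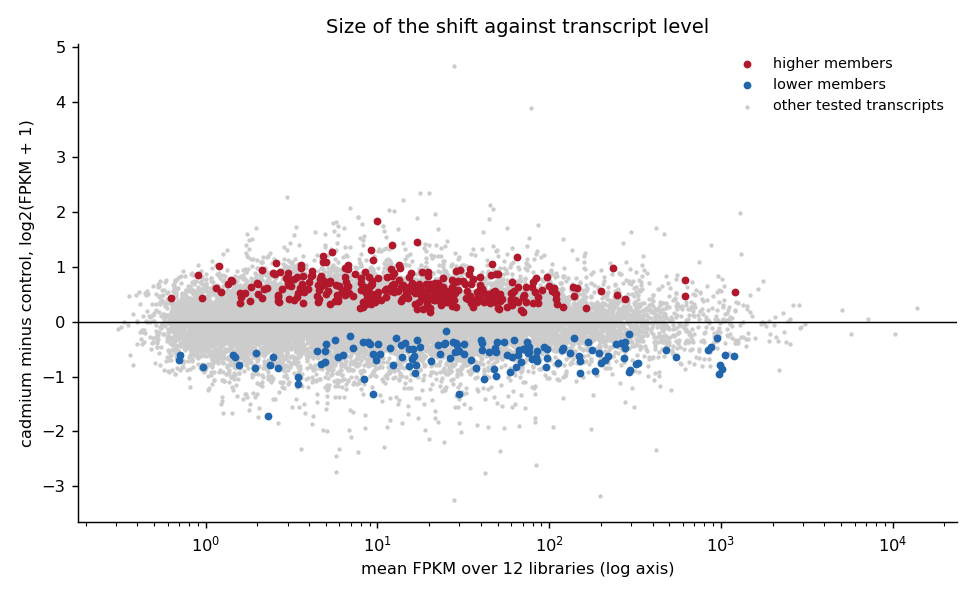
Pooled difference between the 9 cadmium and 3 control libraries on the log2(FPKM + 1) scale against mean FPKM over the 12 libraries (log axis), 1 point per transcript. Members (red higher, blue lower) lie between 0.18 and 1.83 or between -1.72 and -0.17, and transcripts with larger shifts are mostly other tested transcripts (grey).

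The members made up a small part of the FPKM sum of each library. The 341 higher members summed to between 11589 and 14456 FPKM in the cadmium libraries, or 1.28% to 1.63% of a library, and to between 8308 and 8987 FPKM in the controls, or 0.871% to 1.01%. The 134 lower members summed to between 13034 and 17012 FPKM in the cadmium libraries, or 1.47% to 1.87%, and to between 22402 and 24610 FPKM in the controls, or 2.51% to 2.60%. The lower members, though fewer, held a larger share of every library than the higher members did except in 20 mM replicate 2, where the shares were 1.47% and 1.63%.

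The mean shift of the members differed between replicates more at some doses than at others. The mean shift of the higher members against the control mean lay between 0.44 and 0.63 log2 units at 5 mM, between 0.62 and 0.63 at 10 mM and between 0.53 and 0.76 at 20 mM. For the lower members it lay between -0.62 and -0.57 at 5 mM, between -0.71 and -0.55 at 10 mM and between -0.80 and -0.52 at 20 mM. In both directions 20 mM replicate 2 was the farthest from the controls, at 0.76 and -0.80. The same means over all tested transcripts stayed between -0.03 and 0.14 in the cadmium libraries, and the 3 controls themselves lay between -0.14 and 0.08, with replicate 2 the lowest.

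The library that came nearest to the controls differed by direction. Among the higher members it was 5 mM replicate 1 in 83 of 341, the largest number of any cadmium library, and 20 mM replicate 2 in 12, the smallest. Among the lower members it was 10 mM replicate 1 in 22 of 134, 20 mM replicate 3 in 21 and 10 mM replicate 3 in 3. Over all tested transcripts 5 mM replicate 1 also had the lowest mean of the cadmium libraries, at -0.03 log2 units against the control mean. That library deviated from its group mean by -0.08 over all tested transcripts and by -0.09 over the higher members. 

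**Figure D4:**
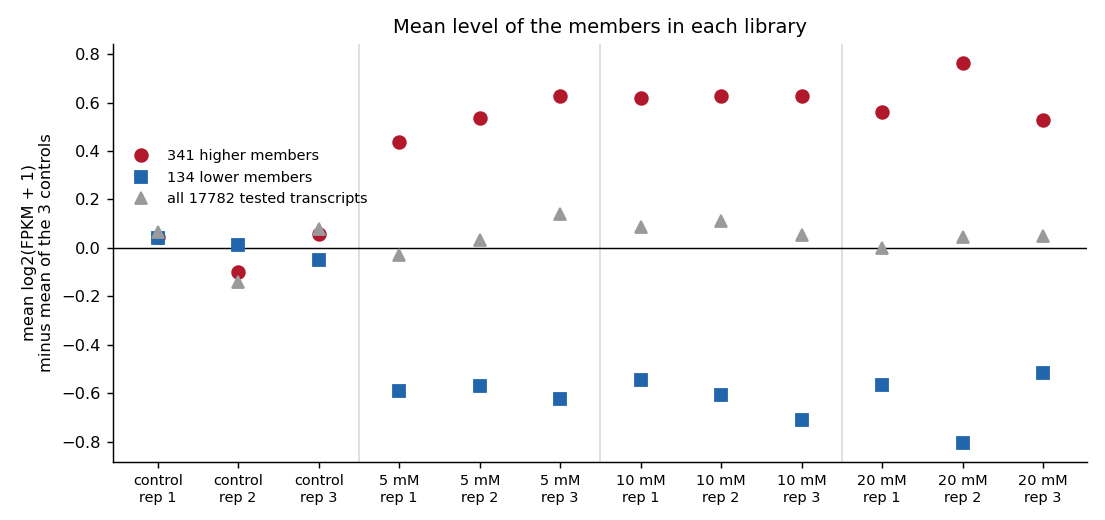
Mean log2(FPKM + 1) minus the mean of the 3 controls, for the higher members (red circles), the lower members (blue squares) and all tested transcripts (grey triangles), in each of the 12 libraries. The cadmium libraries lie between 0.44 and 0.76 for the higher members and between -0.80 and -0.52 for the lower members, while all tested transcripts stay between -0.14 and 0.14.

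Over the dose series the higher members had median shifts of 0.50 log2 units at 5 mM, 0.59 at 10 mM and 0.58 at 20 mM. All tested transcripts had medians of 0.07, 0.09 and 0.06 at those doses. The 5 mM mean was the lowest of the 3 in 176 of the 341 higher members, the 10 mM mean in 86 and the 20 mM mean in 79. Means in the order of the doses occurred in 84, and means in the reverse order in 26. The most frequent order, in 92, had the lowest mean at 5 mM and the highest at 10 mM. The lower members had median shifts of -0.57, -0.58 and -0.58. Their largest shift was at 20 mM in 49 of 134, at 10 mM in 44 and at 5 mM in 41. Their shifts grew in size with each dose in 32 and shrank with each dose in 20. The counts of orders have no background over all tested transcripts and are not a test of dose dependence.

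**Figure D5:**
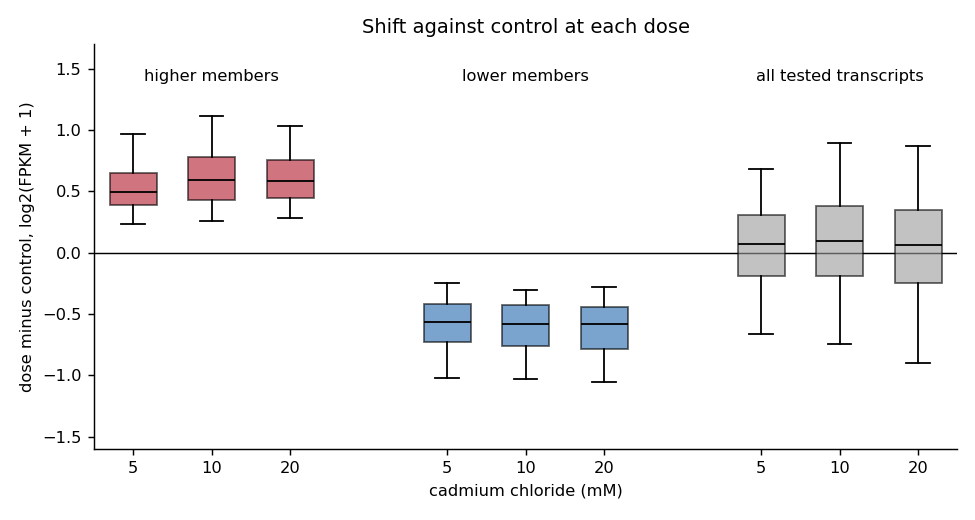
Shift of each dose mean against the control mean on the log2(FPKM + 1) scale for the higher members, the lower members and all tested transcripts; boxes show the quartiles with the median as a line, and whiskers the 5th and 95th percentiles over transcripts. Medians are 0.50, 0.59 and 0.58 for the higher members and -0.57, -0.58 and -0.58 for the lower members.

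The spread of the 3 dose means had a median of 0.23 log2 units in both directions, where all tested transcripts had 0.42. It was under 0.1 in 38 higher and 14 lower members and over 0.4 in 45 and 19. The flattest higher member averaged 4.77 FPKM in the controls, 9.01 at 5 mM, 9.21 at 10 mM and 9.01 at 20 mM, so that the 3 doses differed by 0.01 log2 units. The flattest lower member averaged 447 FPKM in the controls, 242 at 5 mM, 244 at 10 mM and 242 at 20 mM, with a spread of 0.02 log2 units.

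At the limits of the rule, members and other transcripts had nearly equal values. The widest spread of dose means was 0.497 among the higher members and 0.492 among the lower ones, and the closest transcripts outside the limit had 0.501 and 0.504. Within 0.1 above the limit lay 23 higher and 12 lower transcripts that met the other conditions. The gap between the nearest cadmium and control libraries was under 0.05 log2 units in 113 higher and 39 lower members, with medians of 0.09 and 0.10. A further 156 and 64 transcripts with level doses missed the separation by less than 0.05. The smallest gap among higher members was 0.000713, in a transcript at 19.25 FPKM in 5 mM replicate 1 and 19.24 FPKM in control replicate 1. Of the members, 2 higher ones reached 1 FPKM in exactly the 3 libraries required.

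Separated transcripts that were not level had larger shifts, which the limit on the dose means favours. Dose means over 0.5 apart on one side of the controls put at least 1 dose more than 0.5 from the control mean. The 83 that stood higher but had dose means more than 0.5 apart had a median pooled difference of 0.96, and the 46 lower ones had -0.97. In 74 of the 83 the smallest shift was at 5 mM, against 176 of the 341 level ones. In the 46 lower ones it was at 5 mM in 23 and at 10 mM in 18. The largest shift of a level member, 1.83, compares with 4.66 among all tested transcripts, and none of the 39 tested transcripts that no control library listed was level across the doses and separated.

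Tests of single transcripts were made over all 17782 with limma, a linear model with moderated variances, and a Benjamini-Hochberg adjusted p under 0.05 was called. In the pooled comparison 4 of the 341 higher members were called, where 0.112% of all tested transcripts were called higher. An unadjusted p under 0.05 was found for 310 of the 341 and for 1775 of all 17782 in that direction. Among the lower members 0 of 134 were called with limma, where 0.0394% of all tested transcripts were called lower, with an unadjusted p under 0.05 in 126 of the 134 and in 1011 of all 17782 in that direction. The rule used this contrast, so these counts are not evidence about the members. XM_010088850.1 (adjusted p = 0.0345 in limma) and XM_010089744.1 (adjusted p = 0.0332 in limma) were among the 4, and XM_010100396.1 and XM_010094586.1 missed the threshold at adjusted p = 0.0889 and 0.102 in limma. The call of XM_010088850.1 was also lost with the replicate number as a block, at adjusted p = 0.0647 in limma, and with no filter on low values, at 0.0543. It was lost without any 1 library other than 5 mM replicate 1 and 10 mM replicate 1, at adjusted p up to 0.133, and that of XM_010089744.1 was lost in the same fits except those without 20 mM replicate 1. With members chosen again, the 4 calls became 13 higher and 7 lower without 10 mM replicate 1. Leaving out control replicate 3 or 20 mM replicate 3 gave 2, leaving out 20 mM replicate 1 gave 1, leaving out 5 mM replicate 1 gave 4, and each of the other 7 fits gave 0 higher.

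The single doses called few members, and these comparisons share their control libraries. The rule also put every library of each dose on one side of the controls, so the counts below are not evidence about the members. At 5 mM 0 of 341 higher and 0 of 134 lower members were called with limma, where 0.0112% of all tested transcripts were called higher and 0% lower. An unadjusted p under 0.05 was found for 216 and 94 of them, and for 880 and 744 of all 17782. At 10 mM 1 higher member was called, XM_010089744.1 (adjusted p = 0.0428 in limma), and 0 lower ones, against backgrounds of 0.0956% and 0.0337%, with 253 and 99 at an unadjusted p under 0.05, where all 17782 had 1877 and 883. Control and 10 mM libraries of the same replicate number varied together, and a fit blocked on that number called 0. The call of 1 was also lost in 8 of the 12 fits that left out 1 library, and 3 were called without 5 mM replicate 1. At 20 mM 13 higher and 6 lower members were called, against backgrounds of 0.579% and 0.692%. An unadjusted p under 0.05 was found for 260 and 98 members, and for 1634 and 1238 of all 17782. The 13 were 12.6% of the 103 transcripts called higher at 20 mM and 3.81% of the higher members, and the 6 were 4.88% of the 123 called lower and 4.48% of the lower members. These counts of 13 and 6 changed when any 1 library was left out, also one outside the control and 20 mM groups. With members chosen again, 22 higher and 12 lower ones were called without 10 mM replicate 1. Leaving out 10 mM replicate 2 gave 10 and 10, leaving out 5 mM replicate 1 gave 9 and 3, and leaving out control replicate 3 gave 9 and 1. Without control replicate 1 they were 2 and 0, without control replicate 2 they were 4 and 1, and without 20 mM replicate 3 they were 4 and 2. Without 5 mM replicate 3 or 10 mM replicate 3 they were 3 and 2, without 20 mM replicate 1 they were 1 and 1, and without 5 mM replicate 2 or 20 mM replicate 2 they were 1 and 0.

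Between doses the rule itself held the members together, and 0 of the 475 were called by limma in any of the 3 comparisons. For 20 against 5 mM the background was 0.309% of all tested transcripts called, and an unadjusted p under 0.05 was found for 7 members and for 1719 of all 17782. For 10 against 5 mM the background of calls was 0.0337%, and 11 members and 2046 of all had such an unadjusted p. For 20 against 10 mM the background of calls was 0.00562%, and 10 members and 1734 of all had one. With array weights 1 member was called between 20 and 5 mM. A difference between doses that the fit did not call may still exist, since the standard error of a difference between doses was 0.35 log2 units for XM_010088850.1 and 0.27 for XM_010089744.1.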

How the data were processed

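The authors deposited FPKM per transcript, in a table for each library, per the file headers. How reads were aligned and counted, and on which build, is not given in the sources used here. Only values above 0 are listed, to 2 decimals, and a missing transcript was set to 0. Depth was gauged from 1090 sparse transcripts, in which 83.9% of values came within 0.1 of a whole number of reads. The lowest values of each transcript set the size of 1 read. Of the 3488 values above 1.5 reads, which did not set it, 75.5% came that close. Absolute depth is unknown, so no counting interval is given. FPKM divides out library size, so a change in abundant transcripts can shift all others.

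Values were analysed as log2(FPKM + 1). Group means were fitted over the 12 libraries by limma 3.58.1 (R 4.3.3), using a mean-variance trend without a block, after a filter of at least 1 FPKM in 3 libraries. All p-values are two-sided and, except where called unadjusted, Benjamini-Hochberg adjusted over the tested transcripts. The fit was tested on simulated data drawn independently for each transcript and library. Such data hold no variation shared between transcripts or between libraries, so the test does not cover it. The members and gene lists were chosen with earlier results of these data known; the lists, patterns in product names, could not be applied without names. The named transcripts are the 2 per direction with the largest pooled difference among members averaging 5 FPKM or more in cadmium or in control libraries; others are described without identifiers, which no table pairs with genes. Replicate numbers were checked for pairing by correlating deviations from group means across transcripts: control and 10 mM exceeded 0.1 in all 3 pairs (0.268, 0.170 and 0.176), no other pair of groups did, and the labels name no shared batch. Transcripts that share reads with a near-identical copy are uncertain and were not marked.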

Additional observations from a re-analysis of the deposited data

How the results depend on the processing

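Each of the 19 alternatives that gave a pooled difference kept its sign for all 4 named transcripts; XM_010100396.1 could not be fitted under the filter on a mean of 5 FPKM or more. Scaling to a common median gave 224 higher and 229 lower members. It called 13 transcripts higher and 12 lower in the pooled comparison, 3 of them higher members and 1 a lower member. It also called 2 higher members at 10 mM, and 9 higher and 9 lower ones at 20 mM. As deposited the pooled calls were 20 and 7. A pseudocount of 0.1 gave 313 and 122 members, and XM_010100396.1 was not among them. Requiring dose means within 0.25 gave 194 and 75 members. Requiring a gap of at least 0.25 log2 units gave 40 and 17, with median pooled differences of 0.86 and -0.76. Without a filter 10 transcripts were called higher in the pooled comparison, 1 of them a higher member, with 2 lower members; at 10 mM 0 higher and 1 lower members were called, and at 20 mM 7 higher. The filter of a mean of at least 5 FPKM called 3 higher members at 10 mM. Array weights called 32 higher and 12 lower in the pooled comparison, 18 higher and 6 lower members at 10 mM, 33 and 14 at 20 mM and 1 between 20 and 5 mM. Robust moderation with no variance trend gave 13 called higher in the pooled comparison, 2 of them members, 0 higher members at 10 mM, and 8 higher and 2 lower members at 20 mM. With the replicate block, the pooled comparison called 3 higher members and 1 lower member, 10 mM 0 higher members and 20 mM 5 higher and 3 lower. XM_010088850.1 then had an adjusted p of 0.0647 in limma, and without a filter it had 0.0543. The cause of these changes was not tested.

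Without 1 library, members chosen again numbered 349 to 870 higher and 131 to 368 lower. Without a control all original members were kept, and without a cadmium library 313 to 331 of the 341 higher and 121 to 130 of the 134 lower. The newly chosen lists had median differences of 0.52 to 0.59 and -0.59 to -0.55. Pooled calls then ran from 1 to 59 higher and 1 to 38 lower, with 0 to 13 higher and 0 to 7 lower members; at 10 mM 0 to 3 higher members were called, and at 20 mM 1 to 22 higher and 0 to 12 lower. In the 19 alternatives with a fit, 0 members were called at 5 mM by limma. Depth per library is unknown, so its limit on the low members could not be given.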

Other observations

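The floor of 1 FPKM in 3 libraries kept out unequal numbers in the 2 directions. Among the transcripts below it, 37 lay lower and 9 lay higher in all 9 cadmium libraries with dose means within 0.5 log2 units. With them the lists would hold 171 lower and 350 higher transcripts. The floor is unequal by construction. A higher transcript can reach it in any 3 of the 9 cadmium libraries, whereas a lower one must reach it in all 3 controls. At such levels unlisted values are also frequent, and by the worth of 1 read the controls were the shallower libraries. The part of each of these in the counts was not tested.

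Replicates of the members lay closer together than those of other transcripts, which the rule favours. The median SD within groups was 0.20 log2 units for the higher members, 0.22 for the lower members and 0.36 for all tested transcripts. Within groups, 1 shared component held 31.2% of the variance of the higher members and 25.4% of that of the lower members, against 23.2% over all tested transcripts. At 20 mM, replicate 2 deviated from its group mean by 0.15 in the higher members and by -0.18 in the lower members, so that both sets were shifted farthest in the same library, where all tested transcripts deviated by 0.01.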
